A study of Mus musculus with 10 samples.

Results

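The 10 immediate early response genes Fos, Fosb, Jun, Junb, Egr1, Klf4, Klf6, Ier2, Ier3 and Zfp36 were taken by symbol from the 21849 genes of the count table. All 10 were in the table and all 10 passed the filter on low counts. The RNA came from subcutaneous tumours of CT26, a mouse colon carcinoma line, in BALB/c mice aged 5 weeks at the start. In 1 group of 5 mice the feed was an arginine-deficient diet matched in calories, in the other group of 5 a normal diet, each begun 1 week before the cells were injected. The tumours of both groups were taken on day 20, and this 1 transplanted line is the only tumour model of the comparison. Neither group carried an engineered allele or a drug, as far as the labels say.

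Immediate early genes are transcribed within minutes of a growth factor, stress or inflammatory signal, from factors already present in the cell, and their short-lived mRNAs are soon lost again. MAP kinases act on them through serum response factor and its ETS partners and through CREB and ATF proteins, and the products then drive a later wave of genes. In solid tumours such mRNAs are made by cancer cells, macrophages, fibroblasts and vessel cells alike, and they are also known to respond to handling of the tissue, such as the time and temperature between excision and lysis.

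Each library held 12013178 to 31530123 counts, and 12929 genes were tested. Values are given as CPM, counts scaled to a common library total after a TMM correction for library composition. The cell type marker values that follow, also where repeated below, are CPM of the library total without that correction. The share of mitochondrial counts was 9.97% in arginine-deficient tumour 3 and 1.67% to 4.44% in the other 9. Summed skeletal muscle markers were highest in arginine-deficient tumours 3 and 4 (7991 and 2043 CPM) and in normal-diet tumour 4 (747 CPM), and at most 101.5 CPM elsewhere; Acta1 was listed at 0 in all. The labelled tissue was checked against epithelial markers: Krt20 averaged 174 CPM on the arginine-deficient and 237 CPM on the normal diet, while Krt8 (0.754 and 1.02 CPM) and Epcam (0.284 and 0.244 CPM) were near 0. The epithelial markers summed to 97.4 CPM in arginine-deficient tumour 3 and to 208.5 to 304.1 CPM in the other 9. Macrophage markers summed to 2822 to 3236 CPM in deficient and 2481 to 3377 CPM in normal-diet tumours, and fibroblast markers to 2413 to 4284 CPM in deficient and 2926 to 3826 CPM in normal-diet tumours.

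Of the 7 promoters that held a searched response motif, 4 are shown, to give an example of each kind: Jun and Klf6 for the element they share, Zfp36 for the CArG box and Fos for the cyclic AMP core. Each window covers only bases near the start of transcription, and signals are also known to act on these genes from farther upstream. The sequences run from 250 bases before to 50 bases after the start, on the gene's own strand, and come from RefSeq on GRCm38.p6, in which 8 of the 10 genes had an entry. Jun lies on the minus strand at chr4:95052173-95052472, and its capitals mark TGACATCA at -45 to -38, an element known to be bound by Jun and ATF dimers. Klf6 lies on the plus strand at chr13:5861239-5861538 and has the same 8 letters at -119 to -112. Zfp36 lies on the minus strand at chr7:28379179-28379478, with capitals on a match to the CArG box of serum response factor at -58 to -49. Fos lies on the plus strand at chr12:85473640-85473939, and its capitals mark TGACG, the core of a cyclic AMP response element, at -129 and -66.
Jun promoter: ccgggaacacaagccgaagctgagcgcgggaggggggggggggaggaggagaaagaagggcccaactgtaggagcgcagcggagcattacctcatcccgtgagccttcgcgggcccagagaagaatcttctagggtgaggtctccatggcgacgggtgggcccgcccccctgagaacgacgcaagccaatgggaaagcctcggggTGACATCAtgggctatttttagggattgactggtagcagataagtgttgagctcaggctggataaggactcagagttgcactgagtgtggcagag
Klf6 promoter: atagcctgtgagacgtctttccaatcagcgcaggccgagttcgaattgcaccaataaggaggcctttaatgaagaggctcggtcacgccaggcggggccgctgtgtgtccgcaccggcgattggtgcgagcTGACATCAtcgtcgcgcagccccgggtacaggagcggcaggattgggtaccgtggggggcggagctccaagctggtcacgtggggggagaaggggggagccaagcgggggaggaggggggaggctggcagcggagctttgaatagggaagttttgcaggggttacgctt
Zfp36 promoter: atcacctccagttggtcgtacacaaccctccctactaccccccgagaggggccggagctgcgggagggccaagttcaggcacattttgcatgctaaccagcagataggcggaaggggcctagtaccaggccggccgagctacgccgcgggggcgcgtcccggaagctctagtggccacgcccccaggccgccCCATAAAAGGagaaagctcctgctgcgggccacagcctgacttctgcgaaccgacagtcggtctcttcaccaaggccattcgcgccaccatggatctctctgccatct
Fos promoter: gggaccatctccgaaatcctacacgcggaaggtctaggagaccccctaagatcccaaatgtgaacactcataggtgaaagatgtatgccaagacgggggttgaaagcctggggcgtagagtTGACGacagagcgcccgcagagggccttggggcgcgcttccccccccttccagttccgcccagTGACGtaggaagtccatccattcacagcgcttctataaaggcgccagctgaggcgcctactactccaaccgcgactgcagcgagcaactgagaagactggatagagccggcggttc

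Both strands of all 32851 promoters of that length were searched. TGACATCA was in 2 of the 8 promoters and in 3.62% of all, and the CArG box in 1 of 8 (Zfp36) and 1.63% of all. TGACG was in 4 of 8 (Fos, Fosb, Junb and Klf4) and in 20.8% of all; it is also contained in the full cyclic AMP element TGACGTCA, which was in 0 of 8 and 1.79%. The Sp1 letters GGGCGG were in 7 of 8 and 35.7%, CCAAT in 4 of 8 and 37.4%, and TATAAA in 2 of 8 and 13.6%. The AP-1 letters TGACTCA were in 0 of 8 and 5.20%, and the ATF4 composite TGATGNAA in 0 of 8 and 3.97%. A match describes letters only and is no evidence of binding in these tumours.

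Fast loss of these mRNAs is known to depend on AU-rich elements in the 3′ UTR, which tristetraprolin, the product of Zfp36, binds. Windows are shown for the 3 genes with the most heptamers for their 3′ UTR length. Capitals mark the heptamer TATTTAT, read from GENCODE M21 transcripts. Of the 10 genes, 6 held at least 1 heptamer, against 30.0% of 12801 genes, and 2 held at least 3, against 4.11%. Ier3 held 4 in 613 bases, a number reached by 0.526% of genes of like 3′ UTR length. Zfp36 held 3 in 774 bases (0.942% of genes of like length) and Fos 2 in 815 bases (4.29%). Klf6 held 2, Fosb and Jun 1 each, and Junb, Egr1, Klf4 and Ier2 held 0.
Ier3 3′ UTR window: tgtctaattaaTATTTATgTATTTATgta
Zfp36 3′ UTR window: ggcccttTATTTATgacgacttTATTTAT
Fos 3′ UTR window: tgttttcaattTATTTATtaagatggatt

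The comparison of the diets asks whether the tumour's immediate early genes differ when arginine is removed from the feed. By edgeR's quasi-likelihood test, 0 of the 10 genes passed an adjusted p of 0.05, where 0.0541% of all tested genes did (7 genes). At an unadjusted p under 0.05 there was 1 of the 10, Zfp36, beside 6.74% of all genes, and DESeq2 and limma voom also called 0 of the 10, where they called 0.953% and 2.88% of all genes. In 0 of the 10 did the libraries of the diets fail to overlap, against 1.65% of all. The log2 fold change, deficient over normal, was above 0 in 9 of 10 genes with a median of 0.18, beside 50.3% of all genes and a median of 0.00. Without arginine-deficient tumour 2 it was above 0 in 5 of 10 and the median was 0.06. Levels of many of the 10 genes were correlated over the tumours (15 of 45 pairs passed, none of them with Klf6 or Zfp36), so these 9 are not 9 separate observations. In bulk RNA, fewer cells that express a gene and less of its RNA per cell cannot be told apart.

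**Figure D1:**
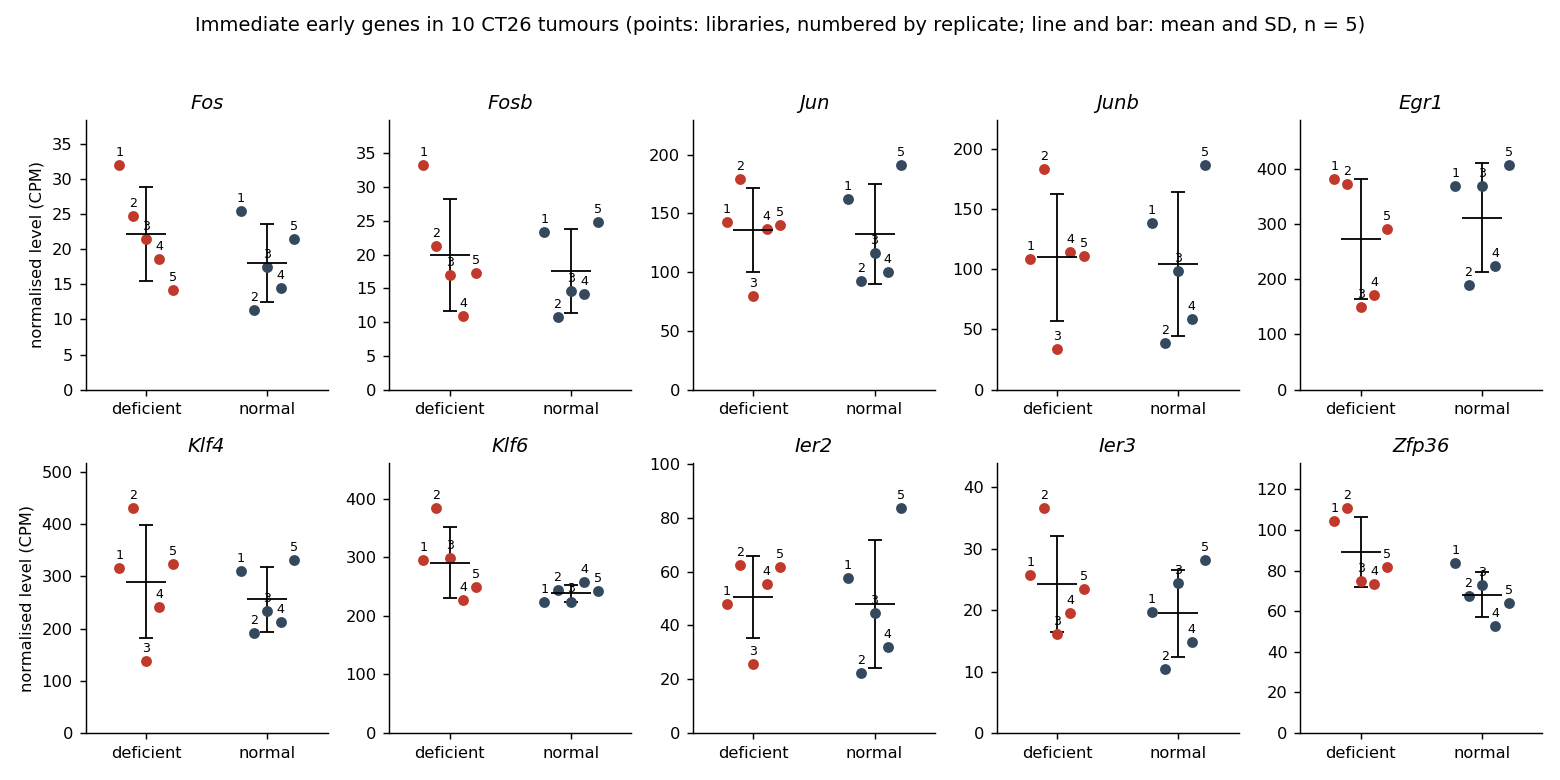
Level of each of the 10 genes in every library, in CPM from 0 on the vertical axis, with arginine-deficient tumours left of normal-diet tumours. Points are single tumours marked by replicate number, lines and bars the mean and SD of 5. The 2 groups overlap in every panel, and Junb has the widest spread as a ratio, with a highest tumour 5.49 times the lowest.

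Fos and Fosb encode the Fos partners of the AP-1 dimer, which cannot bind DNA without a Jun partner. Fos (ENSMUSG00000021250.13, chromosome 12, 85473890 to 85477273) had 31.9, 24.7, 21.4, 18.6 and 14.2 CPM in arginine-deficient tumours 1 to 5, against 25.5, 11.3, 17.5, 14.4 and 21.4 CPM in normal-diet tumours 1 to 5. Deficient tumour 1 was the highest and normal-diet tumour 2 the lowest, and the other 8 were interleaved. The means were 22.2 ± 6.69 and 18.02 ± 5.60 CPM (SD, n = 5 each), a log2 fold change of 0.30 (SE 0.25, edgeR adjusted p = 0.949), and the 95% interval of the fold ran from 0.847 to 1.80. Without deficient tumour 1 the log2 fold change was 0.13. Fosb (ENSMUSG00000003545.3, chromosome 7, 19302696 to 19310051) had 33.3, 21.3, 17.0, 10.9 and 17.3 CPM in the deficient tumours, against 23.4, 10.7, 14.7, 14.2 and 24.9 CPM in the normal-diet tumours. Deficient tumour 1 again stood highest, and the lowest values of the 2 groups lay side by side. Its log2 fold change was 0.19 (SE 0.30, edgeR adjusted p = 0.998) and was -0.08 without deficient tumour 1.

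Jun and Junb encode the Jun partners; Jun is known to drive its own promoter, and JunB is a weaker activator that can hold Jun back. Jun (ENSMUSG00000052684.4, chromosome 4, 95049034 to 95052222) had 143, 179.6, 79.7, 137 and 139.8 CPM in the deficient tumours, against 162, 92.8, 117, 99.8 and 191 CPM in the normal-diet tumours. Deficient tumour 3 was the lowest of all and normal-diet tumour 5 the highest. The means were 136 ± 35.8 and 133 ± 42.6 CPM (SD, n = 5 each), a log2 fold change of 0.03 (SE 0.24, edgeR adjusted p = 0.998) with a fold interval of 0.717 to 1.46. Junb (ENSMUSG00000052837.6, chromosome 8, 84974484 to 84978718) had 108, 183, 33.9, 114 and 111 CPM in the deficient tumours, against 138, 38.5, 98.6, 58.9 and 186 CPM in the normal-diet tumours. The same tumours were at the extremes. Its log2 fold change was 0.08 (SE 0.44, edgeR adjusted p = 0.998), and the fold interval ran from 0.541 to 2.06. The sign of both was set by single libraries: without deficient tumour 2 the log2 fold change was -0.09 for Jun and -0.18 for Junb. Of the exonic bases of Jun, 21.6% lie inside the opposite-strand gene Junos, and the sources used here do not say whether counting used strand.

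Egr1, Klf4 and Klf6 encode zinc finger transcription factors; Egr1 carries growth factor signals to its targets, Klf4 restrains proliferation in gut epithelium and acts in alternatively activated macrophages, and Klf6 acts in tissue injury and macrophage inflammation. Egr1 (ENSMUSG00000038418.7, chromosome 18, 34859823 to 34864984) had 382, 372, 150.4, 171 and 290.5 CPM in the deficient tumours, against 369.5, 189.7, 369, 223 and 407 CPM in the normal-diet tumours. Deficient tumours 3 and 4, those with most muscle transcripts, were lower than every normal-diet tumour. The means were 273 ± 109 and 312 ± 98.0 CPM (SD, n = 5 each), a log2 fold change of -0.19 (SE 0.29, edgeR adjusted p = 0.998), and it was 0.06 without the 3 libraries richest in muscle. Klf4 (ENSMUSG00000003032.8, chromosome 4, 55527143 to 55532466) had 316, 431, 138, 241 and 324 CPM in the deficient tumours, against 309.7, 191, 234, 213 and 332 CPM in the normal-diet tumours. Deficient tumour 2 was the highest and deficient tumour 3 the lowest, so the normal-diet range lay inside the deficient range. Its log2 fold change was 0.18 (SE 0.26, edgeR adjusted p = 0.998), and -0.01 without deficient tumour 2.

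Klf6 (ENSMUSG00000000078.7, chromosome 13, 5861482 to 5870394) had 295, 384, 299, 227 and 249 CPM in the deficient tumours, against 225, 244, 225, 257 and 242 CPM in the normal-diet tumours. Deficient tumours 1, 2 and 3 were above every normal-diet tumour, and the other 2 lay inside the normal-diet range, which was narrow. The means were 291 ± 60.5 and 239 ± 14.02 CPM (SD, n = 5 each), a fold of 1.22 with an interval of 0.992 to 1.499 (log2 fold change 0.29, SE 0.14, edgeR adjusted p = 0.757). Without deficient tumour 2 the log2 fold change was 0.16. Klf6 was the only 1 of the 10 in which deficient tumour 3 was among the 3 highest.

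Ier2 and Ier3 encode small proteins. Ier2 is known in cell motility and Ier3 in survival under stress and in prolonging ERK signals. Ier2 (ENSMUSG00000053560.5, chromosome 8, 84661331 to 84662852) had 47.8, 62.6, 25.5, 55.3 and 61.7 CPM in the deficient tumours, against 57.6, 22.3, 44.7, 31.8 and 83.6 CPM in the normal-diet tumours. The normal-diet tumours held both the lowest and the highest value. Its log2 fold change was 0.08 (SE 0.33, edgeR adjusted p = 0.998), with a fold interval of 0.639 to 1.74, and its sign turned without deficient tumour 2 or 5 or normal-diet tumour 2 or 4. Ier3 (ENSMUSG00000003541.6, chromosome 17, 35821684 to 35822923) had 25.7, 36.6, 16.1, 19.5 and 23.4 CPM in the deficient tumours, against 19.8, 10.4, 24.4, 14.9 and 28.1 CPM in the normal-diet tumours. Deficient tumour 2 was the highest and normal-diet tumour 2 the lowest. The log2 fold change of Ier3 was 0.32 (SE 0.28, edgeR adjusted p = 0.960), and it was 0.12 without deficient tumour 2.

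Zfp36 encodes tristetraprolin, which binds AU-rich elements and brings deadenylases to the mRNA, its own included. Zfp36 (ENSMUSG00000044786.6, chromosome 7, 28376784 to 28380253) had 105, 111, 75.0, 73.3 and 81.7 CPM in the deficient tumours, against 83.6, 67.5, 72.8, 52.9 and 64.1 CPM in the normal-diet tumours. All 5 deficient tumours were above the normal-diet median and 4 normal-diet tumours were below the lowest deficient tumour; normal-diet tumour 1 alone makes the groups overlap. The means were 89.0 ± 17.4 and 68.2 ± 11.3 CPM (SD, n = 5 each), a fold of 1.31 with an interval of 1.03 to 1.65. The log2 fold change was 0.39 (SE 0.16) with an unadjusted p = 0.0299 and an edgeR adjusted p = 0.665, so it did not pass over all genes. Over the alternatives the log2 fold change stayed between 0.29 and 0.47 and the lowest adjusted p was 0.184, by limma voom. Of its exonic bases, 36.7% lie inside Gm44710 on the opposite strand.

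**Figure D2:**
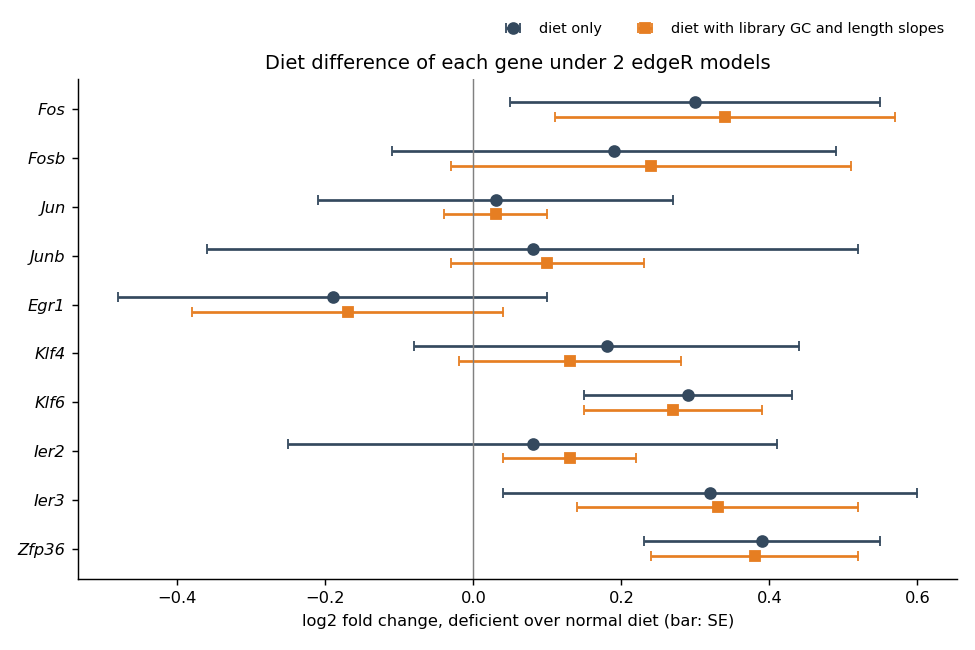
Log2 fold change, arginine-deficient over normal diet, of the 10 genes with bars of 1 standard error, from the fit with diet alone and from the fit that also holds the library slopes on GC and gene length. In the second fit the standard error of Junb is 0.13 in place of 0.44 and that of Jun 0.07 in place of 0.24, and the estimates stay near 0.

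Between genes, levels were compared as CPM per kilobase of exon, averaged over the 10 tumours. Klf4 had the highest level per kilobase (89.5), followed by Egr1 (65.2), Klf6 (60.3), Junb (46.5), Jun (42.1), Ier2 (32.4), Zfp36 (22.7), Ier3 (19.4), Fos (8.54) and Fosb (3.003). Fosb was below Fos, Fos below Ier3, and Ier2 below Jun in all 10 libraries. Klf4 was above Egr1 in 9 of 10. Egr1 and Klf6 could not be ordered, as each was the higher in 5 libraries, and Junb was above Jun, and Zfp36 above Ier3, in only 7 of 10. The order thus put Fos and Fosb at the bottom and Jun and Junb in the middle. It does not hold for the families, whose other genes were not placed in it. In CPM, Fosl2 averaged 143 in deficient and 135.5 in normal-diet tumours, and Jund 23.0 and 21.4. The order of Fos and Fosb also depends on exon length. Fos was 2.85 times Fosb per kilobase, but in CPM the 2 genes were close. Their means were 22.2 and 19.9 CPM in deficient and 18.02 and 17.6 CPM in normal-diet tumours. Exon length was the union over all annotated transcripts, 2352 bases for Fos and 6243 for Fosb, so the gap between them comes mostly from that length. For Zfp36 the union is 1 block of 3470 bases, and its place depends on it too.

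Most of these genes had a wide spread over the 10 tumours. Across both diets together, the highest over the lowest tumour was 5.49-fold in Junb, 3.75-fold in Ier2, 3.51-fold in Ier3 and 3.13-fold in Klf4, against 2.09-fold in Zfp36 and 1.71-fold in Klf6. The biological coefficient of variation, the spread beyond counting noise in edgeR's fit, was 48.5% in Junb, 37.1% in Ier2 and 33.1% in Egr1, against 21.98% in the median gene. Among genes of like abundance, 99.4% varied less than Junb, 97.4% less than Egr1, 97.2% less than Ier2 and 94.6% less than Klf4. Klf6 (17.3%) and Zfp36 (19.4%) were ordinary by that measure, at 44.2% and 58.3%. The 2 genes with the smallest p for diet were thus the 2 with the least spread.

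The same tumours were often near the top or the bottom. Normal-diet tumour 2 was among the 3 lowest in 9 of the 10 genes, normal-diet tumour 4 in 8 and deficient tumour 3 in 6. Deficient tumour 2 was among the 3 highest in 9, normal-diet tumour 5 in 7 and deficient tumour 1 in 6. Over the 10 genes, the median log2 level relative to the normal-diet mean was 0.35, 0.61, -0.43, 0.09 and 0.21 in deficient tumours 1 to 5, against 0.33, -0.62, 0.03, -0.33 and 0.51 in normal-diet tumours 1 to 5. Each diet thus held tumours at both ends.

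Of the 45 pairs of genes, 44 had a positive Pearson r of log2 CPM over the 10 tumours, with a median of 0.59. By a two-sided permutation test of 100000 resamples, 15 pairs passed an adjusted p of 0.05 over the 45, and 16 did by Spearman's rho. Jun and Junb had r = 0.98 (rho 0.95, permutation p = 2e-05, adjusted p = 0.0009), and 0.97 without the 2 farthest tumours. Jun, Junb, Ier2 and Klf4 formed a block whose 6 pairs had r of 0.85 to 0.98, at least 0.82 without the 2 tumours farthest from the median and 0.83 to 0.96 without the 3 libraries richest in muscle. Within the diets, Jun with Junb had r = 1.0 among the deficient and 0.96 among the normal-diet tumours, each over 5 tumours and as a description. Without normal-diet tumour 2 only 8 pairs passed, and without the 3 libraries richest in muscle 5 did, over 7 tumours.

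Fos and Fosb had r = 0.82 (rho 0.81, permutation p = 0.00433, adjusted p = 0.0195), which was 0.60 without the 2 farthest tumours and 0.92 without the 3 libraries richest in muscle. Fos had r = 0.46 with Ier2. Klf6 stood apart: its 9 pairs had r of -0.02 to 0.60 and 0 passed (lowest adjusted permutation p = 0.145). The 9 pairs of Zfp36 had r of 0.35 to 0.67, and 0 passed (lowest adjusted permutation p = 0.0881). Whether the pairs of Klf6 differ from the other pairs was not tested.

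**Figure D3:**
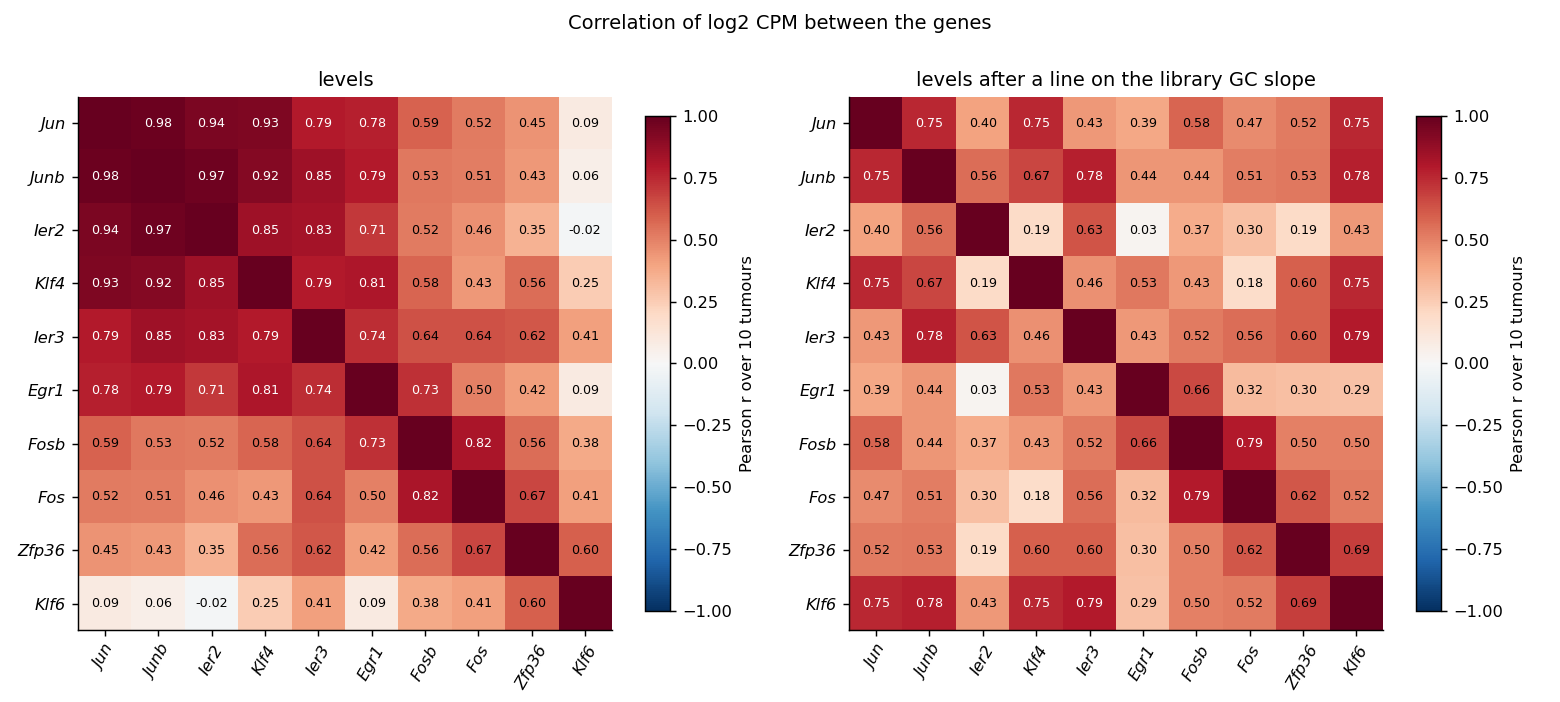
Pearson r of log2 CPM over the 10 tumours for each pair of the 10 genes, on the left for the levels and on the right after a straight line on each library's GC slope was taken off. The block of Jun, Junb, Ier2 and Klf4 has r of 0.85 to 0.98 on the left and 0.19 to 0.75 on the right.

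A measure of the libraries moved with that block. In each library the log2 level of all tested genes, relative to the mean, was fitted on transcript GC content and log10 gene length together. The slope on GC, at a given gene length, ran per 10 percentage points from -0.52 to 0.18 in deficient and from -0.33 to 0.37 in normal-diet tumours. It was negative in deficient tumour 3 (-0.52), normal-diet tumour 2 (-0.33) and normal-diet tumour 4 (-0.23), the 3 tumours most often among the 3 lowest, and positive in the other 7. The slope was added as a measure after the data were seen, and p-values were adjusted over 90 relations of 9 measures with 10 genes, of which 9 passed. Junb had r = 0.96 with it (rho 0.95, permutation p = 3e-05, adjusted p = 0.0018), 0.90 without the 2 farthest tumours, and 0.75 within the 7 tumours of positive slope. For Ier2 the r was 0.96 (rho 0.88, permutation p = 0.00014, adjusted p = 0.0042), and 0.91 within the 7. Jun had r = 0.95 (rho 0.85, permutation p = 4e-05, adjusted p = 0.0018), and 0.78 within the 7. Klf4 had r = 0.85 (rho 0.77, permutation p = 0.00116, adjusted p = 0.0149), but 0.27 within the 7. By Spearman's rho only Junb of these 4 passed the adjustment.

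Ier3 had r = 0.74 and Egr1 0.73 with the GC slope (adjusted permutation p = 0.0908 each), and 0.14 and 0.06 within the 7 tumours of positive slope. Klf6 had r = -0.15 with the GC slope, Zfp36 0.31, Fos 0.40 and Fosb 0.44. Of all these genes, 0 passed. Transcripts of Junb are 62.6% GC, of Ier2 60.9%, of Klf4 57.7%, of Fosb 56.2%, of Egr1 55.8% and of Jun 55.5%. Those of Zfp36 are 54.8% GC, of Ier3 54.4%, of Fos 54.1% and of Klf6 44.99%, against 50.01% in the median gene. The r did not follow GC content alone, as Jun and Fosb lie close in GC content but far apart in r. Of all tested genes, 2.13% had an r of at least 0.95 with the slope. Among genes of like GC content the median r was 0.81 for Junb, 0.82 for Ier2, 0.64 for Jun and 0.75 for Klf4, and 94.4%, 92.2%, 95.3% and 68.8% of them had a lower r. Fos, Fosb and Zfp36 lay below the medians for their GC content (0.55, 0.69 and 0.59), and Egr1, Ier3 and Klf6 above theirs (0.67, 0.56 and -0.61). After the line on the slope was taken off, all 45 pairs were still positive with a median r of 0.52, but 0 passed (lowest adjusted permutation p = 0.0997), and the block had r of 0.19 to 0.75. Fos with Fosb had 0.79 after the line and the pairs of Klf6 0.29 to 0.79.

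**Figure D4:**
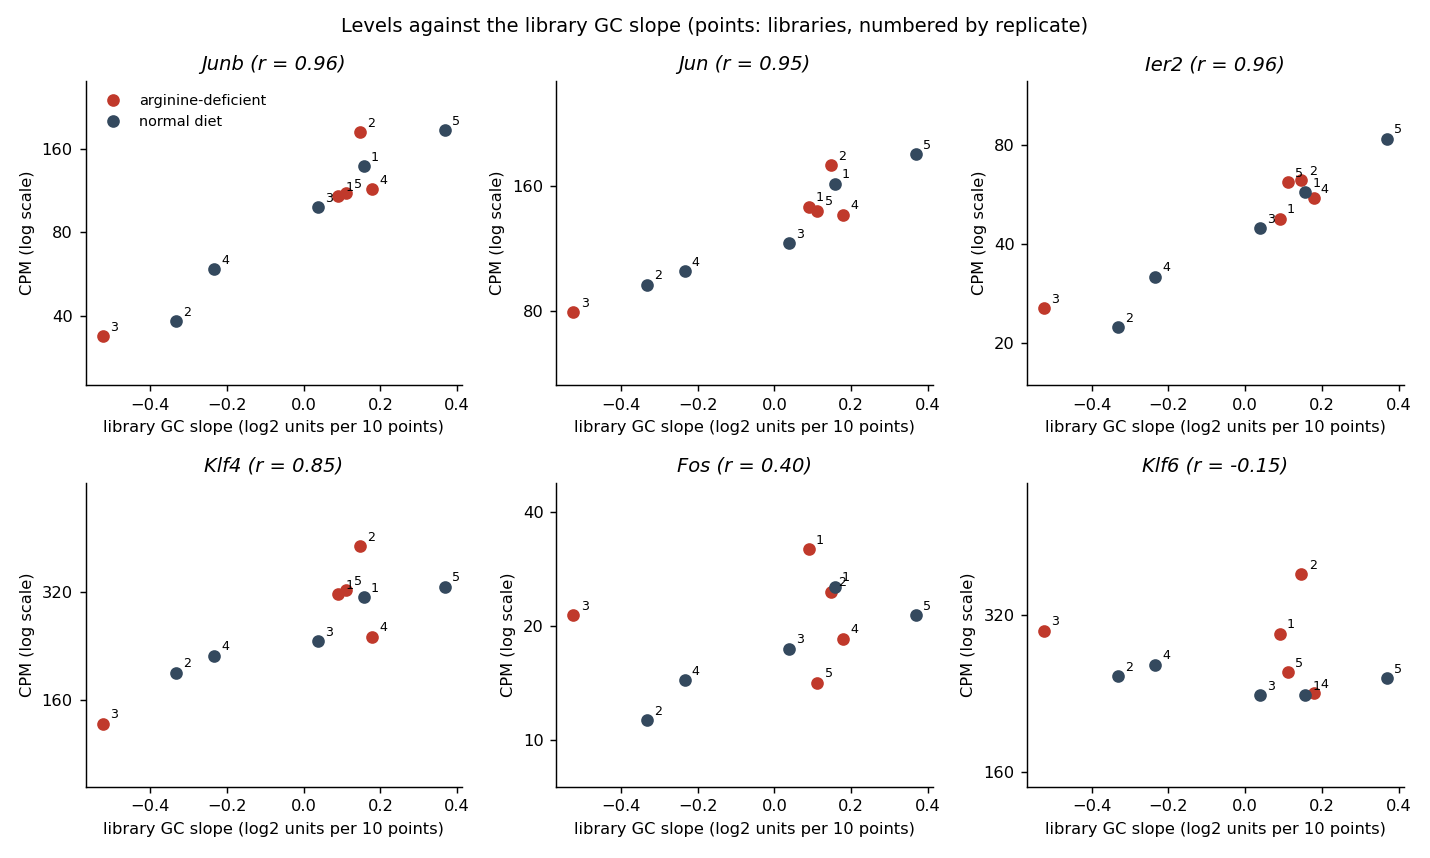
CPM on a log axis of Junb, Jun, Ier2, Klf4, Fos and Klf6 in the 10 tumours against each library's GC slope (change in log2 level per 10 percentage points of transcript GC at a given gene length), with arginine-deficient and normal-diet tumours in separate colours. Junb, Jun and Ier2 climb along the slope with r of 0.95 to 0.96, while Fos (0.40) and Klf6 (-0.15) scatter.

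Further library measures moved with some of the genes. The share of mitochondrial counts had r = -0.80 with Jun, -0.81 with Junb, -0.82 with Klf4 and -0.73 with Egr1 (adjusted permutation p = 0.00675, 0.0081, 0.0216 and 0.0406). In the same order of genes, rho was -0.83, -0.76, -0.70 and -0.78, and 0 passed by rho. Without the 2 farthest tumours the r were -0.76, -0.76, -0.54 and -0.53. Within the 7 tumours of positive GC slope they were -0.47, -0.34, -0.16 and -0.34. The 3 tumours of negative GC slope also had the highest mitochondrial shares (9.97%, 4.44% and 4.27%), so the 2 measures are not separated here. Fibroblast markers had r = -0.83 with Klf6 (rho -0.77, permutation p = 0.00084, adjusted p = 0.0126), -0.81 without the 2 farthest tumours, and -0.91 and -0.51 within the deficient and the normal-diet tumours; it did not pass by rho. Muscle markers had r of -0.80 to -0.07 with the 10 genes, and neutrophil markers 0.38 to 0.76. For muscle, macrophage, neutrophil and endothelial markers, total count and Gapdh, 0 of 60 relations passed, with lowest adjusted permutation p of 0.061 (muscle), 0.112 (macrophage, neutrophil and endothelial), 0.235 (total count) and 0.201 (Gapdh). Their part in the spread of these genes was not tested.

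With the library slopes on GC content and gene length as covariates the estimates for diet barely moved, while the standard errors of the block shrank. Jun had a log2 fold change of 0.03 (SE 0.07), Junb 0.10 (SE 0.13), Ier2 0.13 (SE 0.09) and Klf4 0.13 (SE 0.15). Zfp36 had 0.38 (SE 0.14, edgeR adjusted p = 0.226) and Klf6 0.27 (SE 0.12, edgeR adjusted p = 0.319). In that fit 0 of the 10 genes passed, where 0.526% of all genes did (35 higher and 33 lower).

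Other genes of the early response were set beside them. Of 11 other AP-1 genes, 10 were above 0 on the log2 scale (median log2 fold change 0.11). By edgeR, DESeq2 or limma voom 0 passed, where 0.0541%, 0.953% and 2.88% of all genes did. At an unadjusted p under 0.05 by edgeR there were 0, beside 6.74% of all tested genes. Atf3, which is induced by amino acid stress, averaged 15.7 ± 5.04 CPM in deficient and 11.3 ± 4.42 CPM in normal-diet tumours (mean ± SD of 5 each, log2 fold change 0.48, SE 0.29). The others of smallest p were Jdp2, a repressor of AP-1 (0.30, SE 0.21), and Fosl1 (0.39, SE 0.30), which has 57.2% of its exonic bases inside Ccdc85b. Of 22 other primary response transcription factors 19 were tested, 16 had a positive and 3 a negative log2 fold change, 0 passed by edgeR or DESeq2 and the median was 0.19. At an unadjusted p under 0.05 by edgeR there was 1 gene of the 19, Myc, beside 6.74% of all tested genes. limma voom called 1, also Myc, where it called 2.88% of all genes. Myc averaged 227 ± 51.7 CPM in deficient and 167 ± 19.9 CPM in normal-diet tumours (mean ± SD of 5 each, log2 fold change 0.45, SE 0.16, edgeR adjusted p = 0.579). Klf10 had 0.30 (SE 0.16) and the nuclear receptor gene Nr4a3 0.94 (SE 0.53), which was 0.14 without deficient tumour 3.

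Among 33 effector genes of the early response, 19 had a positive and 14 a negative log2 fold change, and 0 passed by edgeR or DESeq2. An unadjusted p under 0.05 by edgeR was found in 8 of the 33, 7 of them higher on the deficient diet, beside 6.74% of all tested genes. limma voom called 2, Gadd45a and Ppp1r15a, the second named after its values were seen, where it called 2.88% of all genes. Gadd45a, a growth arrest gene, averaged 39.4 ± 15.7 CPM in deficient and 19.2 ± 6.93 CPM in normal-diet tumours (mean ± SD of 5 each, log2 fold change 1.03, SE 0.30, edgeR adjusted p = 0.390), and 48.7% of its exonic bases lie in another gene. Areg, an EGF receptor ligand, had 1.08 (SE 0.41), and the antiproliferative gene Btg2 0.58 (SE 0.21).

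Genes of the pathway that switches these genes on and off were set beside them as well. Of 19 upstream kinases and serum response cofactors 14 were above 0 (median log2 fold change 0.05). Elk3, an ETS partner of serum response factor, had -0.39 (SE 0.14, edgeR adjusted p = 0.571) but 79.5% of its exonic bases lie in Cdk17; the kinase genes Map2k1 and Mapk8 had 0.24 (SE 0.13) and 0.19 (SE 0.19). Of 14 feedback genes of the MAP kinases 8 were positive, with a median of 0.14, led by Spred3 (-0.24, SE 0.13), Dusp5 (0.43, SE 0.25) and Spry2 (0.26, SE 0.18). The corepressors of Egr1, Nab1 and Nab2, had -0.01 (SE 0.15) and 0.09 (SE 0.27). In each of these lists 0 genes passed by edgeR, DESeq2 or limma voom, where 0.0541%, 0.953% and 2.88% of all genes did. At an unadjusted p under 0.05 by edgeR there was 1 gene (Elk3), beside 6.74% of all tested genes.

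On the side of mRNA decay, 7 of 11 relatives and partners of tristetraprolin were above 0 on the log2 scale (median 0.04). By edgeR, DESeq2 or limma voom 0 passed, where 0.0541%, 0.953% and 2.88% of all genes did. At an unadjusted p under 0.05 by edgeR there were 0, beside 6.74% of all tested genes. Zfp36l3 had 0.53 (SE 0.28) at about 1 CPM, Cnot7 0.34 (SE 0.22) with 78.5% of its exonic bases in other genes, and Xrn1 -0.17 (SE 0.16). Of 18 transcripts that tristetraprolin is known to destabilise, Ier3 among them, 16 were tested, 13 had a positive log2 fold change, 0 passed by edgeR or DESeq2 and the median was 0.28. At an unadjusted p under 0.05 by edgeR there were 3 of the 16 (Myc, Ptgs2 and Vegfa), beside 6.74% of all tested genes. limma voom called 2, Myc and Vegfa, where it called 2.88% of all genes. The lists overlap: Myc was already counted among the transcription factors, and Ptgs2 and Plk3 among the effector genes. Ptgs2, the cyclooxygenase of inflammation, averaged 159 ± 72.4 CPM in deficient and 96.6 ± 20.0 CPM in normal-diet tumours (mean ± SD of 5 each, log2 fold change 0.72, SE 0.28, edgeR adjusted p = 0.632). Vegfa averaged 331 ± 114 CPM in deficient and 224 ± 29.6 CPM in normal-diet tumours (mean ± SD of 5 each, log2 fold change 0.56, SE 0.23, edgeR adjusted p = 0.687).

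Heat shock genes are often induced by the same stresses. Of these, 11 of 13 lay above 0, at a median log2 fold change of 0.18, and 0 passed by edgeR, DESeq2 or limma voom. An unadjusted p under 0.05 by edgeR was found in 2 of the 13, beside 6.74% of all tested genes. Dnajb1, Hspa1a and Hspa1b were also counted among the effector genes. Hspa8, a constitutive chaperone, averaged 816 ± 239 CPM in deficient and 551 ± 47.5 CPM in normal-diet tumours (mean ± SD of 5 each, log2 fold change 0.57, SE 0.18, edgeR adjusted p = 0.465). Hspb1 had 1.38 (SE 0.63) and Hspd1 0.20 (SE 0.12), and Hspb1 had -0.37 without the 3 libraries richest in muscle. All tested genes had a median log2 fold change of 0.00, with 6499 positive and 6425 negative.

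**Figure D5:**
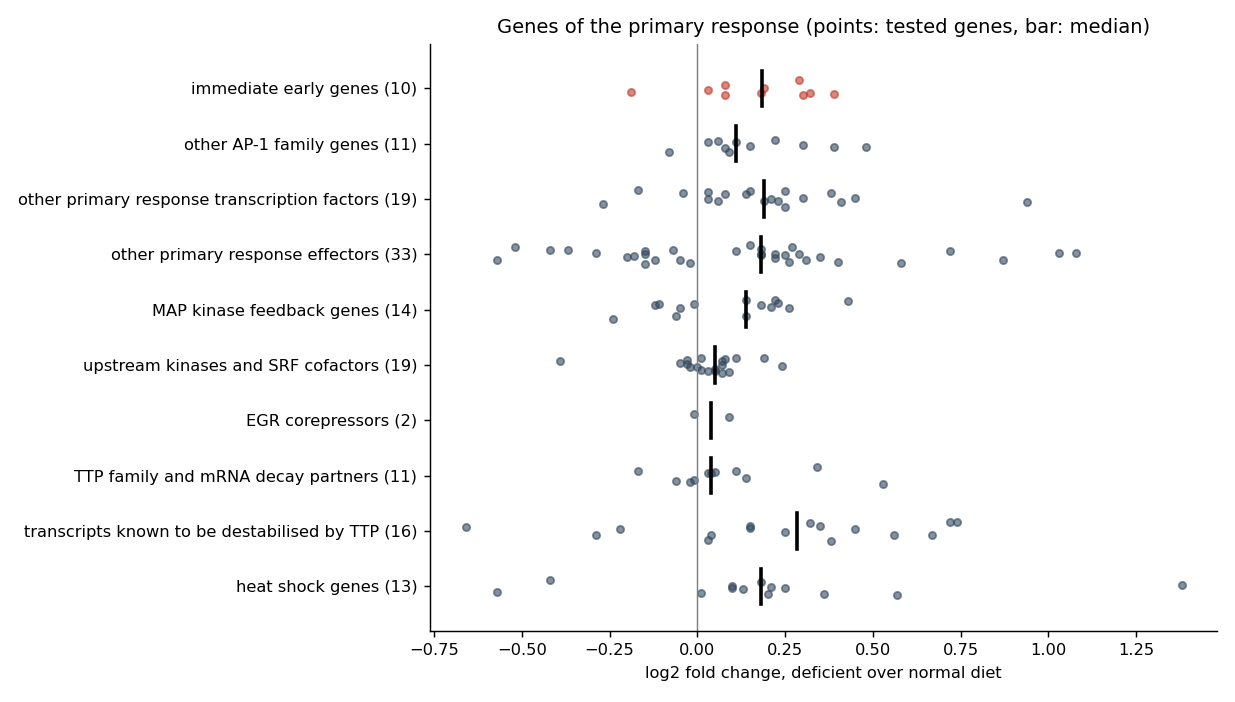
Log2 fold change, arginine-deficient over normal diet, of every tested gene in the 10 immediate early genes and in the other lists, with a bar at each list's median. The medians run from 0.04 to 0.28 and no gene in the lists passes an adjusted p of 0.05 by edgeR.

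The genes whose pattern over the 10 tumours was most like that of the 10 were Card19, Rfxank, Hif1an, Cfap157, Tmem151a and Zfp707, out of 10365 candidates of at least 5 CPM. Each had a mean r of 0.78 with the 10 genes, on deviations from the diet mean. Their highest r was with Jun or Klf4 (0.91 to 0.96) and their lowest with Klf6 (0.24 to 0.31). Their r with the GC slope was 0.64 to 0.85, and 0 of them passed between diets by edgeR. None of the 6 belonged to the lists of early response genes used here.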

How the data were processed

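Per the labels' protocols, TRIzol-extracted total RNA of 10 tumours went into Illumina libraries. The table the authors deposited holds whole-number counts per gene, not normalized; FastQC, STAR, featureCounts and mm10 appear in the submitters' processing notes, without versions, and the sources used here do not state strand use. Columns were matched to libraries through the number in each sample's description, and titles beginning Arg were read as the arginine-deficient diet. The design text speaks of mice assigned at random, so tumours were taken as separate animals; no 2 libraries agreed within sampling noise (chi-square over degrees of freedom at least 17.6), so all counted separately. Of 21849 identifiers, 21379 matched GENCODE M21 with their version, 437 with another version (Ier2 among them) and 33 had no symbol.

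The 10 genes and all lists were chosen with earlier results of these data known. edgeR 4.0.16 (R 4.3.3) fitted diet alone with TMM factors and filterByExpr (minimum count 10, minimum total 15), which kept 12929 genes holding 99.9% of counts, with Benjamini-Hochberg adjustment over all of them. SE is the log2 fold change divided by the root of F. Correlations used log2 CPM (prior count 2) and 100000 permutations. Named beyond the 10 genes were the 3 genes of smallest p per list and the 6 most alike in pattern. Alternatives were other size factors and filters, DESeq2 1.42.0, limma 3.58.1 voom with sample weights, a replicate block, left-out libraries, thinning, and GC and gene length slopes as covariates; the GC slope as a library measure was added after the data were seen. On 3 simulations of 200 changed genes, the share edgeR recovered was 16.4% at a 1.5-fold change, 68.7% at 2-fold and 96.0% at 4-fold, so genes changed 1.5-fold seldom passed at this size. The changed genes were drawn at random from genes above a low level, each with its own spread. Most of the 10 genes vary more than the median gene (Junb 48.5% against 21.98%), and 200 changes were planted where 7 genes passed in the data. The shares therefore cannot be read for the 10 genes.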

Additional observations from a re-analysis of the deposited data

Results flagged for a closer look

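Measures of the libraries and of the 10 genes were checked in 24 groups of 5 tumours for a tumour far from the others, where chance flags about 1 group in 20. None of the 10 immediate early genes was flagged. The mitochondrial share of counts was 9.97% in arginine-deficient tumour 3, far above the nearest other deficient tumour (2.92%). Summed skeletal muscle markers reached 7991 CPM in that tumour, with the nearest at 2043 CPM. Among normal-diet tumours the same markers reached 747 CPM in tumour 4, with the nearest at 101.5 CPM. In arginine-deficient tumour 3 Junb was at 33.9 CPM and Klf4 at 138 CPM, the lowest of the 10 tumours, and Klf6 at 299 CPM was the second highest. Without the 3 libraries richest in muscle, all 10 genes lay above 0 (median log2 fold change 0.36). By edgeR 0 of the 10 passed in that fit, where 0.139% of all tested genes did (18 genes). The share of all genes above 0 in that fit is not given here, so the 10 cannot be set against it. Left out were deficient tumours 3 and 4 and normal-diet tumour 4, so the groups were smaller and unequal. Of these libraries, deficient tumour 3 and normal-diet tumour 4 also had a negative GC slope (-0.52 and -0.23). The only library of negative slope that was kept was normal-diet tumour 2 (-0.33), so the 2 measures are not separated by this.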

How the results depend on the processing

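Under every alternative run, 0 of the 10 genes passed; the lowest adjusted p was 0.184, for Zfp36 by limma voom. Of 220 log2 fold changes of the 10 genes under alternatives, 206 kept their sign and 14 reversed. Leaving out each library gave ranges of -0.08 to 0.35 for Fosb, -0.09 to 0.20 for Jun, -0.18 to 0.40 for Junb, -0.01 to 0.36 for Klf4 and -0.10 to 0.37 for Ier2, without a reversal 0.13 to 0.46 for Fos, 0.16 to 0.36 for Klf6, 0.12 to 0.48 for Ier3, 0.29 to 0.47 for Zfp36 and -0.35 to -0.03 for Egr1, and Egr1 was at 0.06 without the 3 libraries richest in muscle. Among the other named genes the same gave 0.29 to 0.69 for Atf3, 0.23 to 0.62 for Fosl1, 0.14 to 1.16 for Nr4a3, 0.15 to 0.40 for Spry2, 0.20 to 0.45 for Cnot7, 0.68 to 1.63 for Hspb1, -0.12 to 0.07 for Nab1, -0.07 to 0.25 for Nab2 and -0.17 to 0.40 for Tmem151a; Hspb1 was at -0.37 without the 3 libraries richest in muscle and Mapk8 at -0.02 by voom. The number of the 10 genes with a positive log2 fold change was 5 to 9 with a library left out, the 5 without arginine-deficient tumour 2, and their median 0.06 to 0.35.

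Of all genes, 7 passed by edgeR, 132 by DESeq2, 373 by voom, 68 with GC and length slopes, 18 without the 3 libraries richest in muscle, 0 when the 2 libraries highest in Gapdh were left out (907 had an unadjusted p under 0.05), and 0 to 16 with a library left out (0 without normal-diet tumour 1 or 3, 16 without deficient tumour 3). The cause was not tested. In the lists used here, voom passed Gadd45a, Ppp1r15a, Myc and Vegfa, and Mmp8 among the neutrophil markers. Of the pairs, 15 passed, 8 to 16 with a library left out, 5 without the 3 muscle-rich libraries (over 7 tumours) and 0 after the line on the GC slope. Same-numbered tumours of the diets had deviations correlated at 0.13, -0.35, -0.01, 0.13 and 0.18, and none was its own best match. These values gave no sign of pairing by number, but they cannot show that nothing was shared, and the labels do not say. With the replicate block 1 gene of all and 0 of the 10 passed. The lowest count of any of the 10 genes was 197, for Fos, and the spread between tumours was larger than counting error.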
